A study of Canis lupus familiaris with 18 samples.

Results

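Canine primary osteosarcomas, malignant bone tumours whose cells deposit bone matrix, were compared by the level of macrophage genes in the tumour tissue. Of 18 tumours, each on 1 Affymetrix canine array, the 6 of highest and the 6 of lowest macrophage score were set against each other, and the other 6 lay between them. The score was the mean of 4 z-scores, taken across the 18 arrays for CSF1R, CD163, C1QB and AIF1, each read from its brightest probe set on average. The sides were therefore chosen by measured values and are not a labelled condition. Every p-value on them concerns association with the score, and the 4 scoring genes are described without a test. By label, 9 tumours belonged to a normal ALP and 9 to an increased ALP group, by concentration in serum (ALP, alkaline phosphatase, an enzyme released mainly by bone and liver). All 18 samples were tumour tissue frozen at surgery, biopsy or necropsy, and there was no normal tissue. No treatment, age, scan date or batch is given in the labels, nor the procedure behind each tumour. Replicates are different tissues by label.

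Macrophages are phagocytes that settle in most tissues and in tumours, where they engulf dying cells, make complement C1q and present antigen on MHC class II. CSF1R is the receptor for the growth factor CSF1, on which macrophages and the bone-resorbing osteoclasts both depend. CD163 takes up haemoglobin bound to haptoglobin, C1QB is a chain of C1q, and AIF1 binds actin in activated macrophages. In bone, macrophages and osteoclasts arise from related precursors, so part of their gene expression is shared.

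The score ran from 1.40 in normal ALP replicate 9 to -1.07 in normal ALP replicate 7. Normal ALP replicate 9 and increased ALP replicate 2, at 1.40 and 1.35, stood apart from the next tumour, normal ALP replicate 2 at 0.725. At the upper border, increased ALP replicate 7 was the last tumour inside at 0.443 and increased ALP replicate 6 the first outside at 0.253. At the lower border, normal ALP replicate 3 was inside at -0.596 and increased ALP replicate 9 outside at -0.403.

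**Figure D1:**
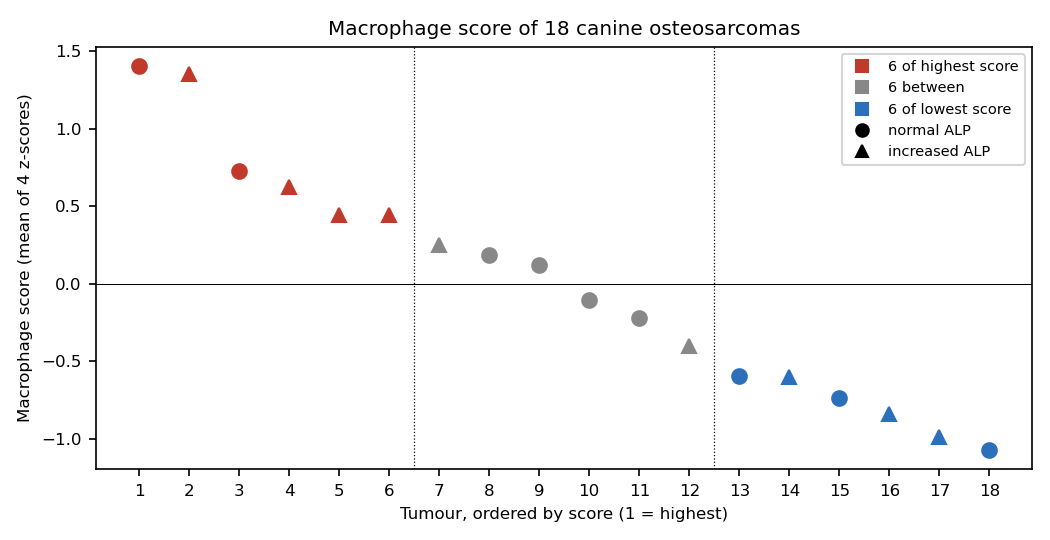
Macrophage score (mean of 4 z-scores, no unit) of each of 18 tumours in order of score, with circles for normal ALP and triangles for increased ALP. The dotted lines mark the 6 highest, between 0.443 and 1.40, and the 6 lowest, between -1.07 and -0.596. Both serum groups appear on each side.

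The serum ALP groups fell on both sides. The macrophage-rich side held 4 tumours with increased ALP and 2 with normal ALP, and the macrophage-poor side held 3 of each (Fisher's exact test, two-sided, p = 1.0). Over all 18 tumours the score was 0.03 ± 0.78 (SD, n = 9) with increased ALP and -0.03 ± 0.76 (SD, n = 9) with normal ALP. The difference of 0.063 was smaller than the spread within either group (exact two-sided permutation test over 48620 arrangements, p = 0.862).

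The 4 scoring genes did not all move together. On the deposited log2 scale, CD163 ran from 10.09 through a median of 10.70 to 11.60 in the macrophage-rich tumours and from 7.45 through 8.37 to 9.46 in the macrophage-poor ones. C1QB ran from 10.38 through 11.17 to 11.66 against 8.64 through 9.26 to 10.09, and AIF1 from 9.48 through 10.00 to 10.50 against 7.76 through 8.21 to 9.22. For these 3 genes the sides did not overlap. CSF1R overlapped, from 8.03 through 8.65 to 10.15 on the rich side and from 7.53 through 8.18 to 9.38 on the poor side. Across the 18 tumours CD163, C1QB and AIF1 had pairwise Pearson correlations of 0.77 to 0.89, whereas CSF1R had correlations with them of -0.02, -0.04 and 0.10. These values describe the score and were not tested.

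Macrophage markers outside the score were higher on the rich side in 9 of 10 cases (51.7% of all genes were), CD68 being the exception. These 10 markers were CD68, CD14, MRC1, MSR1, C1QA, C1QC, TYROBP, FCER1G, MARCO and VSIG4, measured on log2(signal + 16), a scale that understates the change of dim probe sets. Their median difference, rich minus poor, was 1.29, against 0.0078 over all 10713 genes tested. Of the 10, C1QA and C1QC passed limma's test (Benjamini-Hochberg adjusted p under 0.05, hereafter called), where 0.0467% of all genes were called higher. Both are chains of the same C1q molecule as the scoring gene C1QB, so their calls are not separate from the score. In bulk tissue, fewer macrophages and less RNA per macrophage cannot be told apart.

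CD68, a lysosomal protein abundant in macrophages and osteoclasts, ran from 8.79 through a median of 10.17 to 12.60 in macrophage-rich and from 8.51 through 10.84 to 11.53 in macrophage-poor tumours. The sides overlapped almost fully. The difference was -0.10 ± 0.64 (SE; 95% interval -1.49 to 1.29; limma adjusted p = 0.987), and its other probe set had the opposite sign. Its direction turned with several settings, including leaving out increased ALP replicate 4, where it was 0.081.

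CD68 and CSF1R tracked osteoclast genes across the 18 tumours. The 6 correlations given here were chosen after seeing the data, and CSF1R entered the score, so they are described without a test. CD68 had a Pearson r of 0.91 and a Spearman rho of 0.90 with ACP5, the tartrate-resistant acid phosphatase of osteoclasts. With CTSK, the collagen-cleaving cathepsin of osteoclasts, the r was 0.88 and the rho 0.92, and with C1QA they were -0.15 and -0.23. For CSF1R the r was 0.58 with ACP5 (rho 0.64), 0.62 with CTSK (rho 0.66) and 0.20 with C1QA (rho 0.04).

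Leaving out the 2 tumours farthest from the median of the x-axis gene gave CD68 an r of 0.88, 0.89 and -0.19 with ACP5, CTSK and C1QA, and CSF1R an r of 0.59, 0.66 and 0.05. Within the serum groups, CD68 with ACP5 had an r of 0.95 in the normal ALP and 0.88 in the increased ALP tumours, and with CTSK of 0.86 and 0.91. CD68 with C1QA gave 0.04 and -0.50. CSF1R with ACP5 gave 0.71 and 0.36, with CTSK 0.78 and 0.32, and with C1QA 0.48 and -0.18. Differences between these correlations were not tested.

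**Figure D2:**
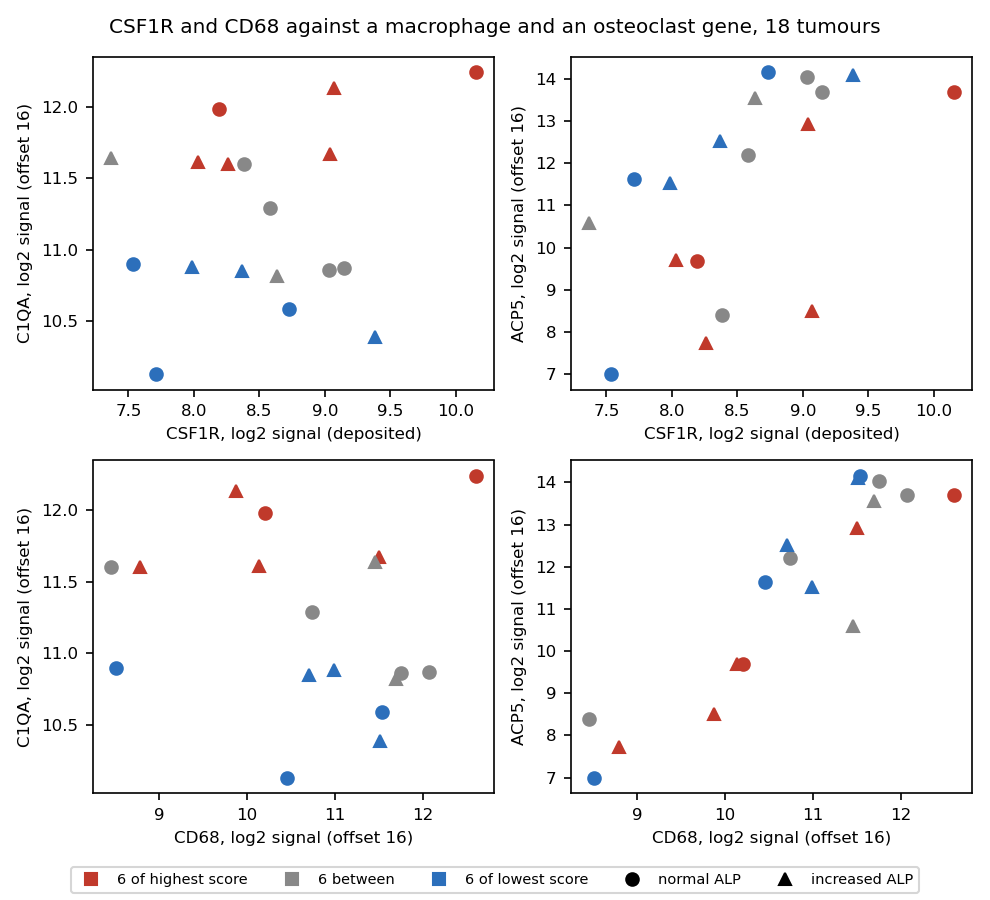
Each point is a tumour, coloured by side and shaped by serum ALP group, with CSF1R (deposited log2 signal) or CD68 (log2 of signal plus 16) on the horizontal axis and C1QA or ACP5 (log2 of signal plus 16) on the vertical axis. CD68 and ACP5 run together across both sides (r of 0.91), and CD68 and C1QA have an r of -0.15.

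Across all genes, the tumours with a high score were higher in C1q, MHC class II and a few further immune genes, and no gene could be called lower. Of 25747 probe sets tested with limma, 12 were called higher (0.0466%) and 0 lower (0.0%). At an unadjusted p under 0.05 there were 1154 higher (4.48%) and 854 lower (3.32%). The 12 belonged to 8 genes: C1QA, C1QC, CD74 and DLA-DMB with 2 probe sets each, and CD180, CASP12, CD53 and DLA-DQB1. With each gene represented by its probe set of highest mean, 5 of 10713 were called: C1QC, CD180, C1QA, CASP12 and DLA-DQB1. In 53 genes (0.495%) every rich tumour lay above every poor one, and in 20 (0.187%) every rich tumour lay below.

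The number called was not steady. Leaving out any of 8 tumours (increased ALP replicates 1, 2, 4 or 5, or replicates 2, 7, 8 or 9 of the normal ALP group) left 1 to 3 probe sets higher, with 1 remaining without normal ALP replicate 9, whereas 29 were called without increased ALP replicate 7. Only a C1QA probe set was called in all 12 such fits, with differences of 1.68 to 1.82 and a highest adjusted p of 0.0177. With sides formed by a score without C1QB, 5 probe sets were called, and 4 of the 12 were kept (smallest limma adjusted p 0.0473).

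A second view used the score as a continuous term over all 18 tumours, with differences scaled to the gap of 1.64 between the mean scores of the sides. Here 105 genes (0.98%) were called higher along the score and 9 (0.084%) lower, corresponding to 197 probe sets (0.765%) higher and 20 (0.0777%) lower. This fit rested in part on the 2 tumours of highest score, and without normal ALP replicate 9 and increased ALP replicate 2 it called 14 genes higher (0.131%) and 0 lower in limma. The 14 called were C1QA, CD180, C1QC, DLA-DMB, LOC484309, MPEG1, MS4A7, CD37, DLA-DQB1, VAV1, VSIG4, CTSC, KLRG1 and FCRLA.

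The gene lists that follow are to be read against all genes tested, of which 51.7% were higher on the rich side, 4.84% were higher at an unadjusted p under 0.05 and 0.98% were called higher along the score.

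The complement list joins C1q and other genes made by macrophages with complement genes of wider origin, such as C1R, C1S, C3 and CD59. All 12 tested members were higher on the rich side, from 0.007 for CD59 to 2.09 for C3, with a median difference of 1.22 against 0.0078 for all genes, and 2, C1QA and C1QC, were called. C1QC, a chain of the C1q molecule that starts the classical complement pathway, ran from 11.40 through 11.81 to 12.20 in macrophage-rich and from 10.11 through 10.19 to 10.93 in macrophage-poor tumours. The sides did not overlap. C1QC rose by 1.48 ± 0.19 (SE), a 2.79-fold higher signal (limma adjusted p = 0.0288), and its other probe set by 1.57. Its slope per unit of score was 0.92 among normal ALP and 0.89 among increased ALP tumours.

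C1QA, the A chain of C1q, ran from 11.60 through 11.82 to 12.24 on the rich side and from 10.13 through 10.72 to 10.90 on the poor side, again without overlap. It rose by 1.25 ± 0.18 (SE), 2.38-fold (limma adjusted p = 0.0325). C1QB, the third chain, was used in the score. Along the continuous score VSIG4 and CFP were called as well. CFP (properdin), which stabilises the alternative pathway convertase, ran from 7.40 through 7.85 to 9.26 against 6.38 through 6.67 to 7.27, without overlap, with a continuous-score difference of 1.35 ± 0.28 (SE, adjusted p = 0.022). Between the sides its probe set differed by 1.36 and its other probe set by 0.46.

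Receptors and identity genes of macrophages were mostly higher, but none passed between the 2 sides. Of 31 tested members 27 were higher, with a median of 0.81, and 19 had an unadjusted p under 0.05, where 4.84% of all genes were higher at that level. The 4 lower members were MERTK at -0.50, CD68 at -0.10, CSF2RB at -0.019 and AXL at -0.0034. Along the continuous score 12 of the 31 were called higher and 0 lower: VSIG4, ITGB2, CYBB, CD86, CD80, MRC1, MSR1, MARCO, FCER1G, PTPRC, TREM2 and FCGR1A. Without the 2 tumours of highest score, 1 of these, VSIG4, was called.

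VSIG4, a complement receptor of tissue macrophages, ran from 8.14 through 9.01 to 9.30 in macrophage-rich and from 6.51 through 7.27 to 8.06 in macrophage-poor tumours. The sides did not overlap, although increased ALP replicate 7 was low on its side. The difference was 1.59 ± 0.25 (SE), 3.01-fold (limma adjusted p = 0.0578), and 1.54 ± 0.20 along the continuous score (adjusted p = 0.000458), while its other probe set differed by 0.70 between the sides.

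MRC1, the mannose receptor CD206, ran from 8.72 through 9.44 to 11.02 against 7.64 through 7.97 to 8.46, without overlap and with increased ALP replicate 2 far above the rest. The difference was 1.51 ± 0.34 (SE, limma adjusted p = 0.236), and along the score it was 1.66 ± 0.28 (adjusted p = 0.00478). Without the 2 tumours of highest score it was again 1.66, with an adjusted p of 0.0912. MARCO, a scavenger receptor for bacteria and particles, overlapped in 1 rich tumour. It ran from 6.34 through 7.71 to 9.04 against 5.81 through 6.31 to 6.97, and along the score its difference was 1.66 ± 0.30 (adjusted p = 0.0072). The CD14 co-receptor for lipopolysaccharide ran from 9.16 through 10.02 to 11.34 against 8.72 through 9.48 to 9.84, a difference of 0.79 ± 0.34 (SE, limma adjusted p = 0.612) with overlap.

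ITGB2, the beta chain of leucocyte integrins, ran from 8.23 through 8.99 to 10.00 on the rich side and from 7.32 through 7.68 to 8.28 on the poor side, with 5 of 6 rich tumours above every poor one. Along the score its difference was 1.45 ± 0.20 (adjusted p = 0.000653). CD180, a relative of the Toll-like receptors on B cells and myeloid cells, was called between the sides. It ran from 7.10 through 7.16 to 7.64 against 6.39 through 6.45 to 6.58, without overlap, and rose by 0.82 ± 0.11 (SE), 1.77-fold (limma adjusted p = 0.0325). It is a dim probe set, so the fold is understated on this scale.

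MS4A7 and MPEG1, both expressed in macrophages, were among the 15 genes of smallest p. MS4A7 ran from 8.46 through 9.48 to 10.20 against 7.30 through 7.82 to 8.12, a difference of 1.66 ± 0.27 (SE, limma adjusted p = 0.0578). MPEG1, a pore-forming protein of phagocytes, ran from 7.40 through 7.85 to 8.54 against 6.46 through 6.75 to 7.04, a difference of 1.19 ± 0.20 (SE, adjusted p = 0.0837). Neither gene overlapped between the sides. The 15 were picked by p in this same comparison, so their separation follows largely from that choice.

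**Figure D3:**
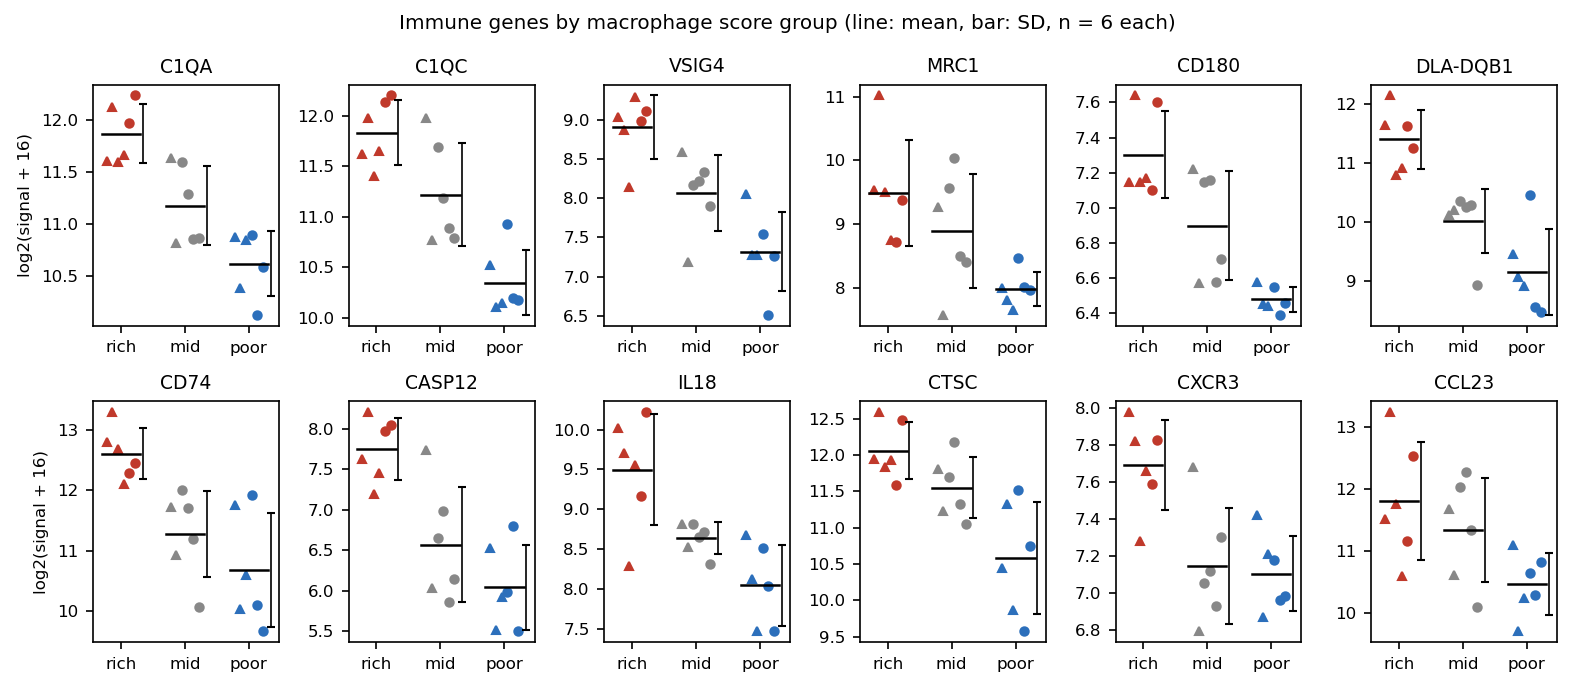
C1q, MHC class II and other immune genes on log2(signal + 16), with a point for each tumour (circles normal ALP, triangles increased ALP), the mean as a line and the SD as a bar for the 6 rich, 6 middle and 6 poor tumours. C1QA, C1QC, VSIG4, MRC1, CD180, DLA-DQB1, CD74, CASP12 and CTSC show no overlap between rich and poor, while IL18, CXCR3 and CCL23 do.

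Antigen presentation on MHC class II was higher with the score. Of 13 tested members 12 were higher, with a median difference of 1.27, the highest of the 30 lists. Of these, 1 (DLA-DQB1) was called between the sides, and 7 along the continuous score. DLA-DQB1, the beta chain of canine DQ, ran from 10.80 through 11.45 to 12.15 in macrophage-rich and from 8.46 through 8.99 to 10.45 in macrophage-poor tumours, and rose by 2.25 ± 0.34 (SE), 4.77-fold (limma adjusted p = 0.0426). The sides did not overlap.

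CD74, the invariant chain that guides class II molecules, ran at its brightest probe set from 12.11 through 12.57 to 13.30 on the rich side and from 9.66 through 10.35 to 11.92 on the poor side. That probe set differed by 1.93 ± 0.39 (SE, limma adjusted p = 0.159), while its 2 other probe sets rose by 1.85 ± 0.25 (adjusted p = 0.0296) and 2.15 ± 0.31 (adjusted p = 0.0325). DLA-DMB, a chain of the DM molecule that loads peptide, gave the same picture, with 1.48 ± 0.26 (adjusted p = 0.0981) at its brightest probe set and called differences of 1.62 and 1.77 at 2 others. DLA-DRA ran from 12.33 through 12.66 to 13.18 against 10.30 through 11.27 to 12.22, without overlap (1.43 ± 0.30, SE, adjusted p = 0.183). Class II genes of different loci resemble each other in sequence, so signal can be shared between their probe sets.

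Class I genes had a smaller median difference than class II genes, but a similar share at an unadjusted p under 0.05. At that level 7 of 12 class I and 7 of 13 class II genes were higher, against 4.84% of all genes. Of 12 tested members 9 were higher and 3 lower, with a median of 0.35. Between the sides 0 were called, and PSMB8 and B2M were called along the score. The largest differences were 1.80 for PSMB9 and 1.34 for DLA-79, neither of them called. PSMB8, an immunoproteasome subunit, ran from 8.24 through 9.52 to 9.89 against 7.87 through 8.29 to 8.87, with overlap, and its continuous-score difference had an adjusted p of 0.00679. B2M, the light chain of class I, had a difference of 0.39 ± 0.12 between the sides (SE, limma adjusted p = 0.396) and an adjusted p of 0.0222 along the score.

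CASP12, a relative of the caspases that process inflammatory cytokines, ran from 7.20 through 7.80 to 8.21 in macrophage-rich and from 5.50 through 5.95 to 6.80 in macrophage-poor tumours. Without overlap, it rose by 1.71 ± 0.25 (SE), 3.27-fold (limma adjusted p = 0.0325). CASP4, whose human namesake senses lipopolysaccharide inside cells, ran from 7.59 through 9.24 to 9.97 against 6.68 through 6.93 to 7.53. Its difference was 1.97 ± 0.34 (SE, limma adjusted p = 0.0981), also without overlap.

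Of 31 cytokines, receptors and sensors, 29 were higher with a median of 0.40, 9 of them at an unadjusted p under 0.05 (4.84% of all genes). Between the sides 0 were called. Without increased ALP replicate 1 the median was 0.20. Along the score 7 were called higher: TLR1, IL18, PYCARD, TLR4, NLRP3, TNFRSF1B and IL15. IL18, a cytokine matured by inflammasomes, ran from 8.29 through 9.64 to 10.22 against 7.47 through 8.09 to 8.68, with increased ALP replicate 7 inside the poor range. Its continuous-score difference was 1.46 ± 0.21 (adjusted p = 0.0011). Without the 2 tumours of highest score 0 of the 7 were called, IL18 having a difference of 1.45 there (limma adjusted p = 0.0852). For TNFRSF1B the difference between the sides was 0.73, and 0.059 at its other probe set.

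Chemokines, which draw leucocytes into tissue, were higher in 17 of 18 tested cases, with a median of 0.91. At an unadjusted p under 0.05, 8 of the 18 were higher (4.84% of all genes). However, 0 were called between the sides and only CCL23 of this list along the score. CCL23 ran from 10.60 through 11.63 to 13.24 against 9.70 through 10.47 to 11.09, with overlap, and had a continuous-score difference of 1.63 ± 0.29 (adjusted p = 0.00642). CCL2, which attracts monocytes, ran from 9.22 through 11.07 to 12.83 against 7.86 through 8.78 to 10.41. Its difference of 2.02 ± 0.61 (SE, limma adjusted p = 0.396) did not pass, nor did that of CCL4 at 1.83 ± 0.48 (adjusted p = 0.327).

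Genes of the lysosome, in which macrophages break down what they engulf, were not a uniform group. Of 28 tested 21 were higher, with a median of only 0.14, and 6 of them had an unadjusted p under 0.05 (4.84% of all genes). CTSC, ASAH1, CTSS and CTSB were called along the score. CTSC, the cathepsin that activates granule proteases, ran from 11.58 through 11.93 to 12.59 against 9.57 through 10.60 to 11.51, without overlap. Its difference was 1.48 ± 0.33 between the sides (SE, limma adjusted p = 0.228) and 1.54 ± 0.22 along the score (adjusted p = 0.00103). Of 23 genes for lipid and iron handling 17 were higher with a median of 0.34, 5 of them at an unadjusted p under 0.05. HMOX1 and GPNMB were called along the score. The median of this list was 0.18 without normal ALP replicate 8. GPNMB, a membrane glycoprotein of lipid-laden macrophages and of osteoclasts, ran from 9.90 through 11.31 to 11.97 against 7.99 through 9.34 to 10.62, with overlap, and its continuous-score adjusted p was 0.0487.

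Of 19 T and NK cell genes 16 were higher on the rich side (51.7% of all genes were) with a median of 0.29, and 11 of them had an unadjusted p under 0.05 (4.84% of all genes). Between the sides 0 were called in limma, and along the score only CXCR3 of this list was (0.98% of all genes). CXCR3, a chemokine receptor of activated T cells, ran from 7.28 through 7.74 to 7.98 against 6.87 through 7.08 to 7.42, with overlap, and had a continuous-score difference of 0.61 ± 0.13 (adjusted p = 0.0336). Between the sides it differed by 0.59, and its other probe set by 0.06. CD3E, a chain of the T cell receptor complex, ran from 7.32 through 7.53 to 8.10 against 6.92 through 7.17 to 7.30, without overlap, but its difference of 0.44 ± 0.14 did not pass (SE, limma adjusted p = 0.446). Larger differences were seen for CD3D, a chain of the same complex, at 1.33 ± 0.44, the adhesion molecule CD2 at 1.22 ± 0.42, the interleukin-7 receptor IL7R at 1.15 ± 0.40 and the protease GZMA at 1.01 ± 0.36. These 4 did not pass either (SE, limma adjusted p of 0.45, 0.464, 0.475 and 0.5). The mean level of the 19 genes ran from 6.79 to 7.57 in the rich and from 6.58 to 6.93 in the poor tumours. The part of these cells in the results on MHC class II and chemokines was not tested.

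Among 7 B and plasma cell genes FCRLA, an Fc receptor-like protein of B cells, was called along the score (2.29 ± 0.41, adjusted p = 0.00642). It ran from 7.08 through 8.84 to 9.97 against 6.09 through 6.30 to 7.63, and normal ALP replicate 3 was the one poor tumour within the rich range. Its 2 other probe sets differed by only 0.038 and 0.12 between the sides, against 2.26 at this one. Of 10 neutrophil genes 6 were lower with a median of -0.29, which turned to 0.043 without increased ALP replicate 3 and to 0.055 with a score without CSF1R. Of this list BPI, which kills bacteria in neutrophil granules, was called higher along the score (1.55 ± 0.28, adjusted p = 0.0072). In the poor group increased ALP replicate 3 had the highest mean of neutrophil genes, 9.98 against a median of 8.14. Dendritic cell genes gave 4 of 7 higher with a median of 0.11, and mast cell genes 5 of 6 with 0.066, both turning sign when single tumours were left out, with 0 called in either fit in limma and 1 and 0, respectively, higher at an unadjusted p under 0.05.

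Of 15 checkpoint and suppressive genes 11 were higher with a median of 0.31, 5 of them at an unadjusted p under 0.05 (4.84% of all genes). TNFRSF14 and LAIR1 were called along the score. The median of this list was 0.59 without normal ALP replicate 3. IL10, a cytokine that dampens macrophages, ran from 6.95 through 7.35 to 7.65 against 6.48 through 6.76 to 6.95. The sides met without overlapping, but the difference of 0.57 ± 0.14 did not pass (SE, limma adjusted p = 0.322). Of 25 interferon response genes 21 were higher with a median of 0.35, 0 were called in either limma fit and 6 were higher at an unadjusted p under 0.05. This median rested largely on normal ALP replicate 9, without which it was 0.081. GBP1, an interferon-induced GTPase, ran from 6.34 through 8.39 to 9.49 against 5.75 through 6.55 to 7.59 (1.49 ± 0.46, SE, adjusted p = 0.418).

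**Figure D4:**
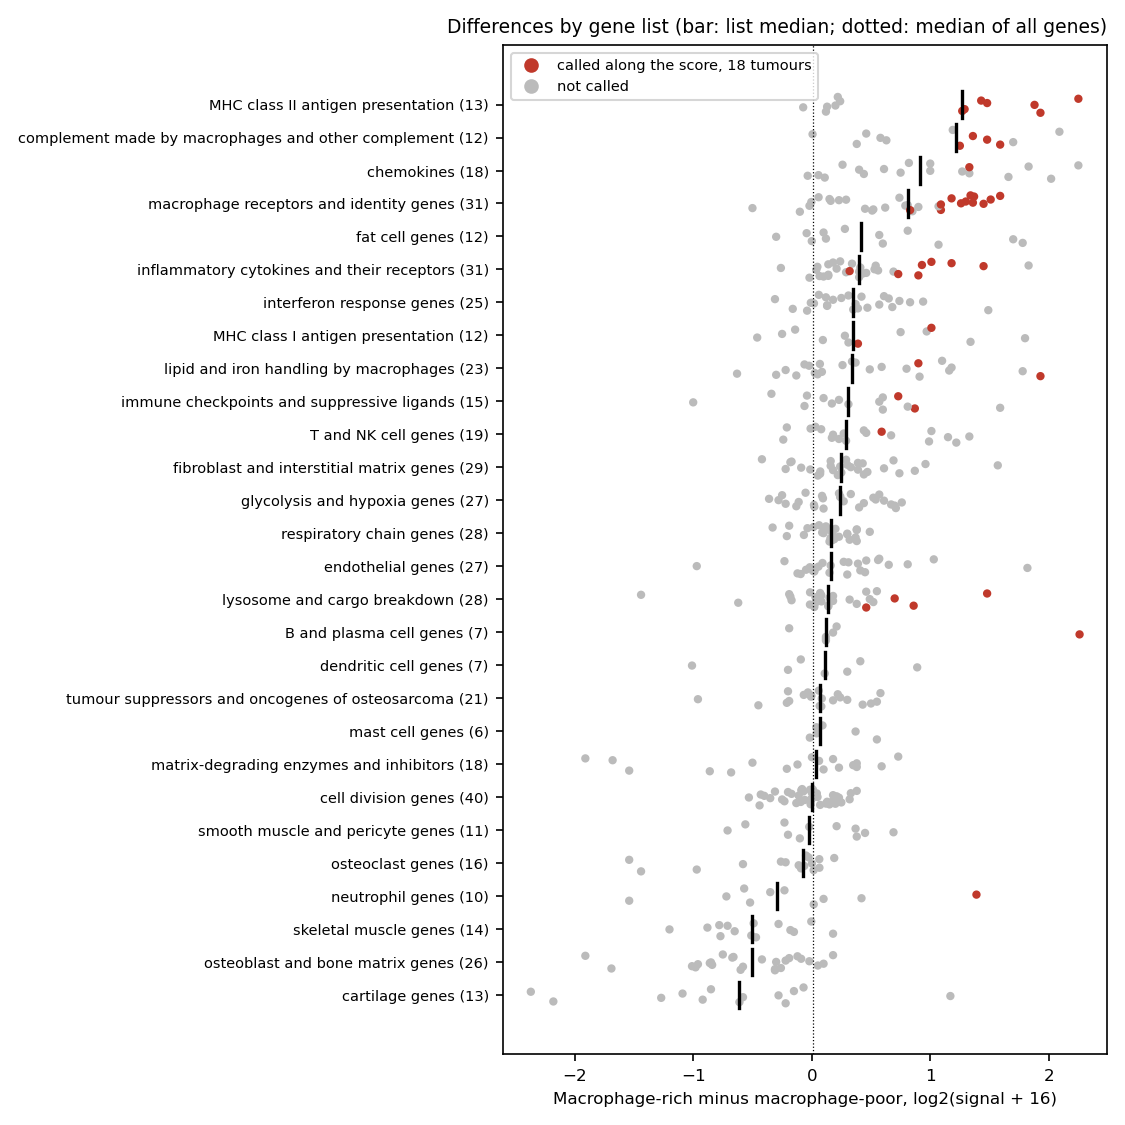
Difference rich minus poor on log2(signal + 16) for each tested gene of the lists with at least 5 tested members (number in brackets), with the list median as a bar and the median of all genes, 0.0078, as a dotted line. Red points are genes called along the score over 18 tumours. The medians run from -0.61 for cartilage genes to 1.27 for MHC class II genes.

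Osteoclast genes were not higher on the rich side. Of 16 tested members 11 were lower, with a median of -0.076. The median turned to 0.021 without increased ALP replicate 4 and to 0.012 with a score without C1QB. With a score without CSF1R it was -0.42. In limma 0 were called, with 0 at an unadjusted p under 0.05. ACP5 ran from 7.73 through 9.70 to 13.70 in macrophage-rich and from 6.99 through 12.07 to 14.16 in macrophage-poor tumours, a difference of -1.44 ± 1.30 (SE, 95% interval -4.27 to 1.38, limma adjusted p = 0.857). The sides overlapped, and normal ALP replicate 3 was far below the other poor tumours. CTSK differed by -0.11 ± 0.22 (95% interval -0.59 to 0.38, adjusted p = 0.954), and its sign turned with the replicate block and with a score without C1QB. MMP9, a gelatinase abundant in osteoclasts, ran from 6.30 through 10.79 to 13.88 against 6.36 through 12.96 to 13.92 (-1.54 ± 1.49, SE, adjusted p = 0.866).

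Osteoblast and bone matrix genes were lower in 23 of 26 cases, with a median of -0.50. The median was -0.25 without increased ALP replicate 2 and -0.92 with a score without CSF1R. However, 0 were called in limma, with 0 at an unadjusted p under 0.05. ALPL, coding for the tissue-nonspecific alkaline phosphatase of osteoblasts, ran from 6.50 through 10.50 to 12.43 on the rich side and from 8.54 through 11.91 to 13.53 on the poor side. The sides overlapped, and the difference of -1.69 ± 1.02 (SE, 95% interval -3.91 to 0.54) did not pass (limma adjusted p = 0.759). BGLAP (osteocalcin), a late osteoblast protein, differed by -0.85 ± 1.09 (SE, adjusted p = 0.907), and SPP1 (osteopontin) by -0.22 ± 0.92 (adjusted p = 0.978).

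Cartilage genes were lower in 12 of 13 cases, with a median of -0.61, and 3 of them, MATN4, COL2A1 and COL11A2, had an unadjusted p under 0.05 without being called. At that level 2.89% of all genes were lower. With a score without CSF1R the median of the list turned to 0.16. COL2A1, the main cartilage collagen, ran from 5.39 through 6.92 to 9.01 against 5.62 through 9.57 to 11.26, with overlap (-2.18 ± 0.95, SE, limma adjusted p = 0.61). Skeletal muscle genes, which mark adjacent muscle, were lower in 13 of 14 cases with a median of -0.50, which turned to 0.12 without increased ALP replicate 4. That tumour, on the poor side, had a mean of 10.48 for these genes against a group median of 7.0. Without it 2 probe sets were called higher. The medians of 3 further lists shrank or turned when a single tumour was left out. Fibroblast and interstitial matrix genes were higher in 23 of 29 cases with a median of 0.25, endothelial genes in 21 of 27 with 0.16, and cell division genes in 20 of 40 with -0.0012. They lay at 0.088 without increased ALP replicate 7, at 0.015 without increased ALP replicate 1, and at 0.13 without increased ALP replicate 7, in that order. These 3 lists had 0 genes called in either limma fit. At an unadjusted p under 0.05 they held 1 (DCN), 1 (SELE) and 0 genes, respectively.

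Among the 15 genes of smallest p that were lower on the rich side, 9 did not overlap between the sides and 0 were called. Of all genes, 0.187% were lower without overlap. The 15 were picked by p in the same comparison, so their separation follows largely from that choice. EFCAB3, named for an EF-hand calcium-binding domain, ran from 5.37 through 6.39 to 6.79 in macrophage-rich and from 7.38 through 7.56 to 7.89 in macrophage-poor tumours, without overlap. Its difference of -1.29 ± 0.21 (SE) had a limma adjusted p of 0.0578. BMP5, a bone morphogenetic protein, ran from 5.50 through 6.64 to 7.79 against 7.97 through 8.82 to 12.10, also without overlap (-2.57 ± 0.65, SE, adjusted p = 0.327). LAMA1, a basement membrane laminin chain, ran from 5.14 through 5.96 to 6.55 against 6.55 through 7.19 to 8.72, where the sides met without overlapping (-1.48 ± 0.36, adjusted p = 0.279). Its other probe set differed by 0.041, with the opposite sign.

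Along the continuous score 9 genes fell: SYNE4, CCK, FAM184A, SHC1, ALX1, TRIB2, CRYGS, CLMN and SBK1. CCK, the peptide hormone cholecystokinin, ran from 5.42 through 5.88 to 10.23 against 8.65 through 10.13 to 12.31, with normal ALP replicate 2 the rich tumour inside the poor range. It fell by 3.31 along the score (SE 0.70, adjusted p = 0.0244). ALX1, a homeobox factor of craniofacial cartilage, ran from 5.19 through 7.53 to 8.86 against 8.73 through 9.20 to 10.05 and fell by 2.02 (SE 0.44, adjusted p = 0.0331). Without the 2 tumours of highest score 0 genes were called lower, and the differences of CCK and ALX1 were -3.23 and -1.83.

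**Figure D5:**
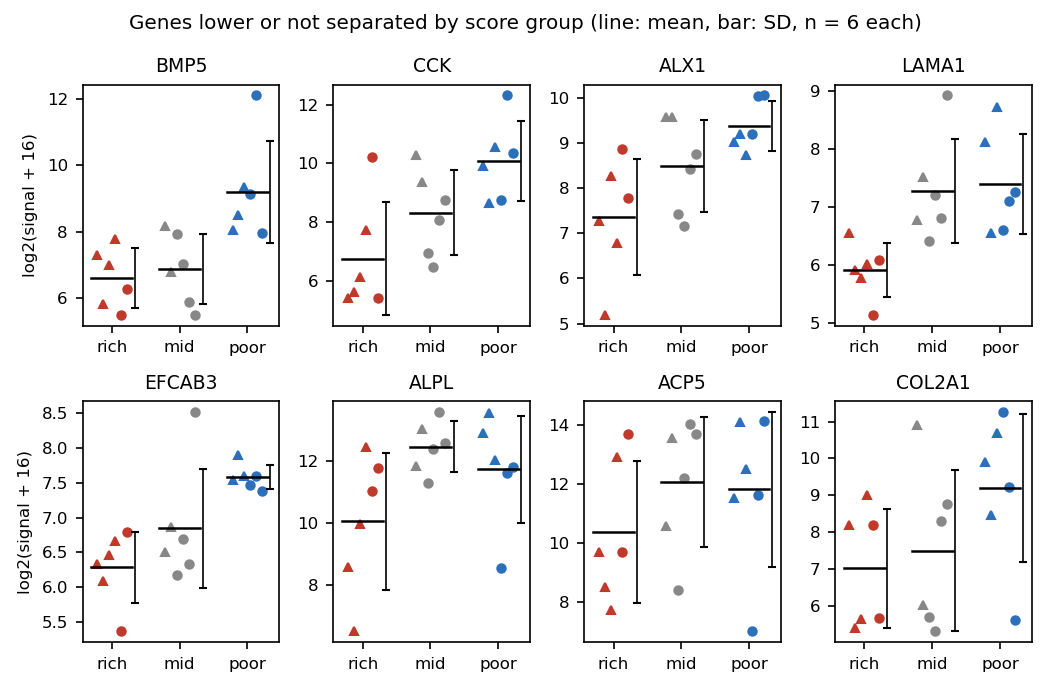
Genes lower with the score, and genes of bone cells and cartilage, on log2(signal + 16), with a point for each tumour (circles normal ALP, triangles increased ALP), the mean as a line and the SD as a bar, for the 6 rich, 6 middle and 6 poor tumours. BMP5 and EFCAB3 do not overlap between rich and poor, whereas ALPL, ACP5 and COL2A1 overlap widely.

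The 6 tumours between the sides took no part in the comparison of rich and poor. Their mean lay between the means of the sides in all 15 of the higher and all 15 of the lower genes of smallest p, against 42.8% of all genes. A wide gap holds a middle value more easily than a narrow one, so this is a description without a test. C1QC, for example, had a median of 11.04 in the middle tumours, and DLA-DQB1 a median of 10.23.

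The sides were also formed without CSF1R. The new sides kept 5 of the 6 rich and 4 of the 6 poor tumours and held 4 increased ALP tumours among the rich and 3 among the poor, as before. Now 61 genes were called higher (0.569%) and 20 lower (0.187%). The called higher genes included 6 of 13 MHC class II, 4 of 12 complement and 8 of 31 macrophage receptor and identity genes, and 0 of 16 osteoclast genes in limma. VSIG4 belongs to both the complement and the receptor list and is counted in each. Among the 20 lower were NPY, a neuropeptide, at -4.88 (adjusted p = 0.0131), ROBO2, an axon guidance receptor, at -2.94 (0.0455), ENPP2 (autotaxin), which makes lysophosphatidic acid, at -1.92 (0.0439), and DLX4, a homeobox factor, at -1.64 (0.0111). These 4 were chosen after their values were seen, and with CSF1R in the score they stood at -2.84, -1.39, -1.13 and -1.0 without being called.

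No relation to the score was found to differ between the serum ALP groups. In the limma fit of score by serum group over 18 tumours, 0 probe sets were called (smallest adjusted p 0.346), with 979 and 1251 in the 2 directions at an unadjusted p under 0.05. With serum ALP as a covariate, 3 probe sets, of C1QA and C1QC, were called higher between the sides.

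Array measures overlapped between the sides. The median log2 signal of an array lay between 6.25 and 6.30 in the rich and between 6.28 and 6.31 in the poor tumours. The difference between 3' and middle actin probe sets is a sign of RNA breakdown. It ran from 0.39 through a median of 0.55 to 1.05 in the rich and from 0.37 through 0.45 to 0.57 in the poor tumours. On the rich side, increased ALP replicates 1, 7 and 8 lay above every poor tumour. With this difference as a covariate 3 probe sets were called higher. The same difference for GAPDH leaned the other way, from 0.15 through 0.28 to 0.57 against 0.22 through 0.44 to 0.74. With it as a covariate 37 were called higher and 1 lower. The BioB spike-in control was highest in increased ALP replicate 3, at 10.29. With 6 arrays a side, precision was limited.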

How the data were processed

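The deposited values are log2 signals of 43035 probe sets per array. The submitters' processing notes name MAS5, and the summary method and normalization are not given in the sources used here. Detection calls were not used. Quality was read from 111 control probe sets, which entered no comparison. Each deposited log2 value was made linear, 16 was added and log2 taken again. Probe sets with a mean over 18 arrays below the 40th percentile (6.15) were left out, as were 7 past it that belong to the scoring genes. Names came from the platform annotation, in which 29254 probe sets carry 1 gene symbol, 439 several and 13231 are not listed. Gene identifiers of 27680 were found in a RefSeq gene table (assembly UU_Cfam_GSD_1.0), which supplied names and no coordinates.

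Sides were compared with limma 3.58.1 in R 4.3.3 (lmFit, eBayes with an intensity trend), two-sided, Benjamini-Hochberg adjusted, at a threshold of 0.05, and the fit was tested on simulated data. Python 3.11.15 with pandas 2.3.3, NumPy 2.4.6, SciPy 1.17.1 and matplotlib 3.10.9 was used for the score, permutations, correlations and plots. The genes named are the 15 of smallest p in each direction, up to 4 of each of 30 lists (12 for macrophage receptors), ALPL, and members of these lists or genes called along the score. NPY, ROBO2, ENPP2 and DLX4 were named from the genes called with a score without CSF1R. The scoring rule, lists and tests were chosen with earlier results of these data known. Alternatives were other offsets, filters and normalizations, covariates, array weights, a replicate block, 3 groups, the continuous score, scores lacking 1 gene, and leaving out arrays. No array was a duplicate (highest correlation between arrays 0.982). The labels do not state that every tumour is from a separate dog, and p-values measure only the spread between these samples.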

Additional observations from a re-analysis of the deposited data

Results flagged for a closer look

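Among 208 checks of 6 tumours each, 16 showed a tumour whose gap to its neighbour was wide against the range of its side. Chance gives about 1 in 20 groups such a gap.

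In the macrophage-poor tumours normal ALP replicate 3 was low in osteoclast-related genes, at 6.99 for ACP5 (next 11.52), 6.36 for MMP9 (next 12.42) and 8.51 for CD68 (next 10.45). The same tumour was high for FCRLA at 7.63 (next 6.38). Increased ALP replicate 3 was high on the same side for MPO at 8.62 (next 6.68), CCDC181 at 9.52 (next 8.46), LOC484309 at 7.08 (next 6.58) and SIGLEC1 at 7.57 (next 7.0). Normal ALP replicate 7 was high for BMP5 at 12.10 (next 9.35), and normal ALP replicate 8 low for BATF3 at 5.77 (next 6.51).

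In the macrophage-rich tumours increased ALP replicate 2 was high for MRC1 at 11.02 (next 9.53) and for DLA-DMB at 10.73 (next 9.95). Increased ALP replicate 7 was low for VSIG4 at 8.14 (next 8.87), and increased ALP replicate 8 high for TIMP3 at 9.68 (next 8.61). Normal ALP replicate 2 was high for LDHA at 14.20 (next 13.22) and MPO at 6.92 (next 6.04).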

How the results depend on the processing

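The count of 12 probe sets higher in macrophage-rich tumours became 3 with serum ALP or the actin difference as a covariate. It was 37 with the GAPDH difference, 30 with 3 groups and 197 with the continuous score. That score without the 2 tumours of highest score (chosen after seeing the data) gave 27. The count was 2 without increased ALP replicate 4, which was high in muscle genes. A score without CSF1R gave 104, and one without C1QB gave 5. Leaving out single tumours gave 1 to 29. The count of 0 lower became 1 with an offset of 64, no filter, array weights or the GAPDH difference, 20 with the continuous score and 78 with a score without CSF1R, and 0 to 1 on leaving out single tumours. The cause of these shifts was not tested. With the tissue number as a replicate block in the continuous fit, 10 were higher and 1 lower, against 197 and 20 without it. Tumours sharing a number had correlations of deviations of -0.16 to 0.27, which were not compared with those of tumours of different numbers. Whether the numbers mark a shared batch or handling was not tested. The excess of rich over poor tumours with increased ALP, 1 here, lay between 0 and 2.

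The macrophage score difference, increased minus normal ALP, was -0.036 with a score without CD163, -0.00093 without AIF1, and -0.10 to 0.25 on leaving out single tumours. CD68 turned to 0.039 with the GAPDH difference, 0.081 without increased ALP replicate 4 and 0.23 with a score without C1QB. It ran from -0.52 to 0.25 on leaving out single tumours. CTSK turned to 0.068 with the replicate block and 0.0042 with a score without C1QB, and ran from -0.25 to 0.0033. With the block TNFRSF11B turned to 0.053 and LDHA to -0.054. Of 103 genes checked, 99 kept their direction in every setting run. Of 30 list medians, 15 changed sign in at least 1 setting: those of dendritic cell, neutrophil, mast cell, osteoclast, endothelial, smooth muscle, cartilage, matrix-degrading, cell division, fat cell, skeletal muscle, red cell precursor, epithelial, tumour suppressor and respiratory chain genes. The other 15 kept their sign in every setting run, among them those of macrophage, complement, MHC class I and II, T and NK cell, cytokine, chemokine, interferon and osteoblast genes. Detection calls were not used, so dim probe sets may lie near background.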
